A study of Mus musculus with 12 samples.

Results

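Expression of 10 genes of neutrophils and their granules was followed in epididymal white adipose tissue (eWAT): S100a8, S100a9, Retnlg, Csf3r, Clec4d, Ngp, Camp, Ltf, Elane and Mpo. They were chosen by name from the 49315 genes of the count table, and all 10 were found there. The tissue came from male Mir181a2b2 flox/flox (flox) mice and from mice lacking Mir181a2b2 systemically (KO), all of which were fed, over 12 weeks, a high-fat diet (HFD) holding 60% of its energy as fat. During that time each mouse received weekly intraperitoneal injections of vehicle or of methotrexate (MTX) at 1 mg/kg, which gave 4 groups of 3 mice with 1 library per mouse. Mice were described as age-matched, without a stated age. The flox mice carried the floxed allele, with no Cre named for these groups, and the deletion in KO mice was not limited to a cell type.

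Neutrophils are short-lived phagocytes that leave the bone marrow with granules already filled. Genes of the azurophil granules, such as Mpo (myeloperoxidase) and Elane (neutrophil elastase), are transcribed in promyelocytes, and those of the specific granules, such as Ltf (lactoferrin), Camp (cathelicidin) and Ngp (neutrophilic granule protein), in later precursors. Mature cells transcribe S100a8 and S100a9, the subunits of calprotectin, as well as Retnlg, a resistin-like secreted protein, and Csf3r, the receptor for granulocyte colony-stimulating factor. Clec4d is a C-type lectin receptor of myeloid cells. Several of these genes are not restricted to neutrophils, since Csf3r and Clec4d are also transcribed by monocytes and macrophages and Ltf by secretory epithelia.

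Total counts ranged from 19495310 to 23976469 per library, so that 3 counts, the limit that a count of 0 allows, corresponded to 0.118 to 0.188 CPM (counts scaled to TMM library size). This limit covers counting error only. Of the 10 genes, 8 passed the filter on low counts, and Retnlg and Mpo did not. Mir181a-2 had 2 counts in 1 flox MTX library and 0 in the other 11, and Mir181b-2 had 0 in all 12, so the genotype labels could not be checked from the targeted genes. RNA of reproductive tissue separated the flox vehicle libraries from the rest. The 32 epididymis genes summed to 1972 to 15680 CPM in flox vehicle, 38.2 to 653.6 CPM in flox MTX and 37.3 to 54.8 CPM in KO mice. Sums of 18 testis germ cell genes were 331.4 to 804.7 CPM, 42.4 to 51.3 CPM and 49.2 to 69.2 CPM in the same order. Flox MTX replicate 1, highest of its group for epididymis genes, was at 42.4 CPM there. The epididymis list holds Lcn2, which is also listed as a granule protein. In whole tissue, fewer cells of a type and less RNA per cell cannot be told apart.

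Of the genes that define mature neutrophils, Ly6g and Stfa2 were at or near 0, and Cxcr2 was so in most libraries. Ly6g, the classical surface marker, had 0 counts in 5 libraries and at most 4 counts, in flox MTX replicate 2. Cxcr2, the chemokine receptor of blood neutrophils, had 0 to 3 counts in 10 libraries, 18 in flox MTX replicate 2 and 12 in KO MTX replicate 3. Stfa2 had 0 counts throughout, and of the 30 genes listed for neutrophil surface and cytosol, many of which other myeloid cells also transcribe, 18 to 24 were above the floor in each library, summing to 227.2 to 1884 CPM, and 18 were tested. The label of the genes as neutrophil genes was thus not matched by a clear signal of Ly6g in any group. The marker list for neutrophils held Ly6g, Cxcr2, Csf3r, S100a8, S100a9, Retnlg, Mmp8 and Cd177, and these did not move together. S100a9 (683 and 154 counts) and Retnlg (27 and 12) were highest in flox MTX replicates 2 and 4. Mmp8 did not pass the test between KO and flox mice under vehicle or MTX (log2 fold changes -0.44 and -0.09). Cd177 was lower in KO mice under vehicle (-4.22).

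The sequences before the start sites are shown for 4 genes: the calprotectin pair S100a8 and S100a9, whose counts differed widely although the genes lie 22597 bases apart on chromosome 3, and the granule genes Ngp and Camp, whose counts were high in the same libraries as those of S100a9. Sequences are from RefSeq on GRCm38.p6, in which all 10 genes matched by symbol, and run 5′ to 3′ over the 250 bases before the RefSeq start. In GENCODE M21 the starts of S100a8 (90668978), Ngp (110419747) and Camp (109849617) lie inside these windows. The TATAAA of S100a8 and the TTGGGCAA of Ngp are thus within the GENCODE genes. S100a8 lies on the + strand (chr3:90668821-90669070), S100a9 on the - strand (chr3:90695722-90695971), Ngp on the + strand (chr9:110419558-110419807) and Camp on the - strand (chr9:109849457-109849706). Capitals mark matches on either strand to TTGCNNAA, a consensus of C/EBP factors, to AGGAAGT, an ETS core, and to TATAAA.
S100a8: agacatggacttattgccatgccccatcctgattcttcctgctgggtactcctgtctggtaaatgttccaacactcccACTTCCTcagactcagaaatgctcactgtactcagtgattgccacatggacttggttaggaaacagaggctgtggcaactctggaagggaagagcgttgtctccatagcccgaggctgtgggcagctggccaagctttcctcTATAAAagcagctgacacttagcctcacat
S100a9: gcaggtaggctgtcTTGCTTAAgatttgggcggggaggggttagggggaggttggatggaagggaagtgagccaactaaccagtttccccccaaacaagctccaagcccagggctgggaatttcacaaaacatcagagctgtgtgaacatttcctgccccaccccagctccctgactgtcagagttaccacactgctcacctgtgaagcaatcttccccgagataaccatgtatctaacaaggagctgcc
Ngp: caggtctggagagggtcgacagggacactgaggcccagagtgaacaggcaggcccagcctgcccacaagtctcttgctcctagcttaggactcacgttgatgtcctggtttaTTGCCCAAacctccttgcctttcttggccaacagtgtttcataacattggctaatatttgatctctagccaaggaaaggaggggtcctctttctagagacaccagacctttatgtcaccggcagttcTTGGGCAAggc
Camp: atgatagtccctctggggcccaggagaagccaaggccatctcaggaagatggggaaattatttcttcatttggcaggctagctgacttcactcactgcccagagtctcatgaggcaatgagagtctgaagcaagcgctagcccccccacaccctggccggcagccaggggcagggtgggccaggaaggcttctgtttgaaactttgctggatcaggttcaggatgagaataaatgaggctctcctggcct

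Among the 10 genes, TTGCNNAA was found before 4 (S100a9, Retnlg, Ngp and Ltf), AGGAAGT before 3 (S100a8, Elane and Mpo) and TATAAA before 1 (S100a8). Of 32851 promoters of the same length, 9.56% held TTGCNNAA, 7.69% AGGAAGT and 12.4% TATAAA. A match describes letters only, and Camp, without a match, was high in the same libraries as S100a9 and Ngp.

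S100a8 and S100a9 encode partners of 1 heterodimer but differed in level and in pattern. S100a8 had 60, 243 and 294 counts in flox vehicle mice, 705, 432 and 420 in KO vehicle mice, 1313, 608 and 238 in flox MTX mice, and 756, 288 and 545 in KO MTX mice. The flox vehicle mice were below all KO vehicle mice, and flox MTX replicate 1 was the highest of the 12. S100a9 had 9, 0 and 1 counts in flox vehicle mice, 9, 6 and 5 in KO vehicle mice, 6, 683 and 154 in flox MTX mice, and 13, 50 and 62 in KO MTX mice. Flox MTX replicates 2 and 4 stood far above all others, while flox MTX replicate 1, highest for S100a8, was within the range of vehicle mice for S100a9.

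Per kilobase of exon, the mean level of S100a8 was 12.4 CPM per kb in flox vehicle, 35.3 in KO vehicle, 50.2 in flox MTX and 33.2 in KO MTX mice. The mean level of S100a9 on the same scale was 0.279, 0.601, 26.2 and 3.48 CPM per kb. Over the 12 mice, log2 CPM of the pair gave Pearson's r = 0.134 (permutation p = 0.647, adjusted p = 0.863 over 28 pairs of genes) and Spearman's rho = 0.287 (permutation p = 0.365, adjusted p = 0.51). Without flox vehicle replicate 1 and flox MTX replicate 1, r was 0.224, and for deviations from the group means it was -0.547.

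**Figure D1:**
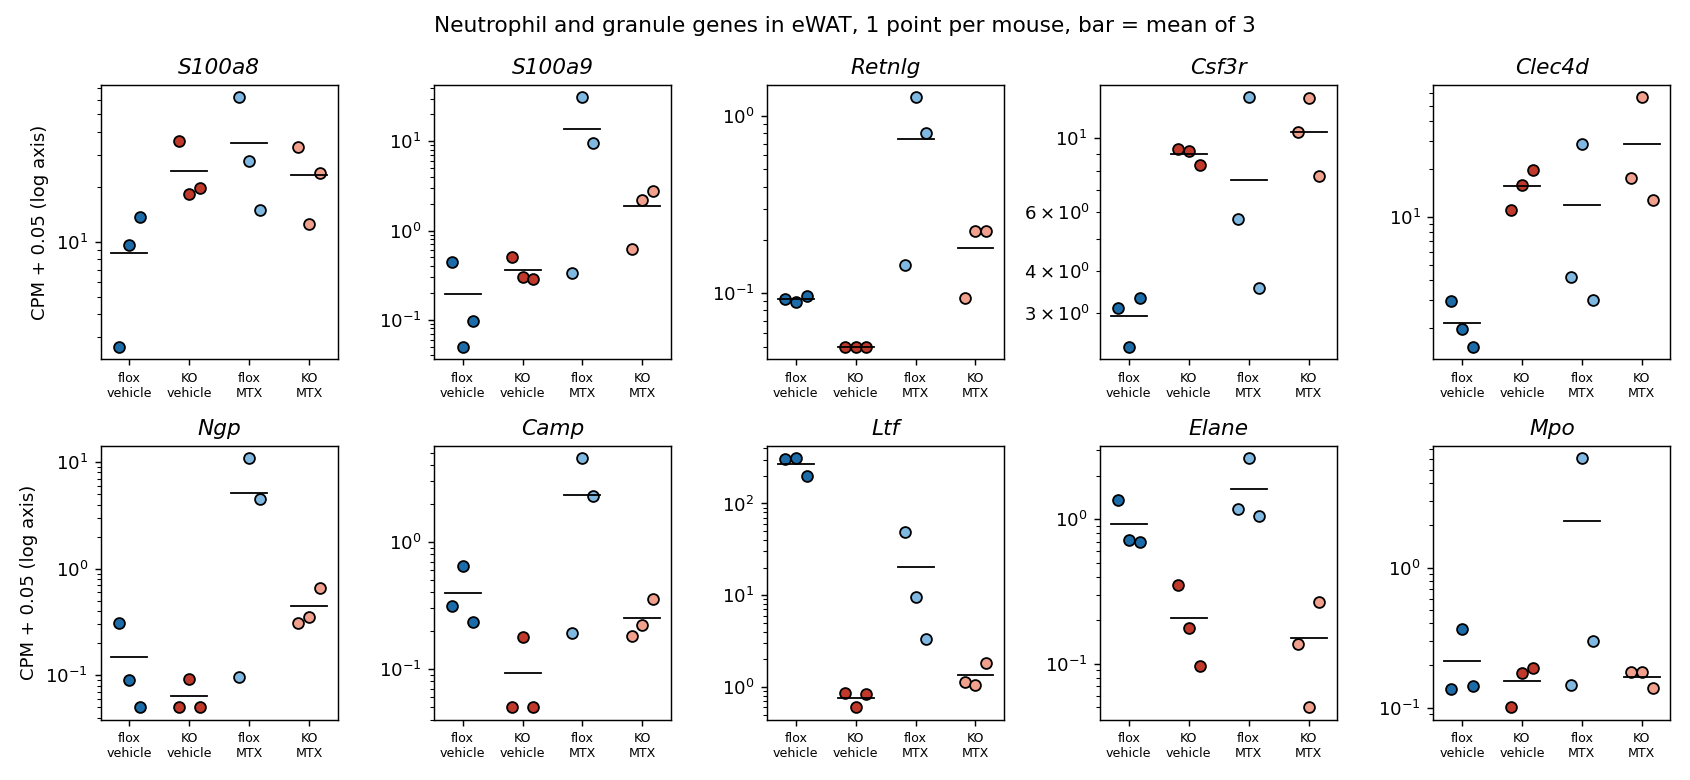
CPM of each gene in the 12 mice, with 0.05 added, on log axes that differ between panels (1 point per mouse, bar at the mean of 3). S100a9, Ngp and Camp have 2 of 3 flox MTX mice far above the rest, Ltf is highest in the 3 flox vehicle mice, and Elane is higher in each flox mouse than in any KO mouse.

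The genes most like S100a8 over the 12 libraries were Olfml3, Epn1, Pam, Saa3 and Nedd8 (r from 0.922 to 0.932 on log2 CPM). Saa3 encodes an acute-phase serum amyloid A protein made in adipose tissue. Haptoglobin (Hp), an acute-phase protein stored in specific granules and also made by adipocytes, was highest in flox MTX replicate 1, at 17600 CPM against 3084 to 10230 CPM in the other libraries. The genes most like S100a9 were the immunoglobulin genes Igkv8-30, Ighv1-54, Igkv1-135 and Igkv8-27 and the interferon-induced Ifi214 (r from 0.943 to 0.969).

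Ngp and Camp, both of specific granules, were highest in flox MTX replicates 2 and 4, where S100a9 was highest as well. The match was not complete, since Camp had its next highest count, 15, in flox vehicle replicate 3, where S100a9 had 0. Ngp had 6, 1 and 0 counts in flox vehicle mice, 0, 1 and 0 in KO vehicle mice, 1, 239 and 72 in flox MTX mice, and 6, 7 and 14 in KO MTX mice. Camp had 6, 15 and 4 counts in flox vehicle mice, 0, 3 and 0 in KO vehicle mice, 3, 99 and 36 in flox MTX mice, and 3, 4 and 7 in KO MTX mice. Both genes were highest in flox MTX replicate 2, next in replicate 4, and at vehicle levels in replicate 1.

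S100a9 and Ngp varied together, with r = 0.963 (permutation p = 2e-05, adjusted p = 0.00028) and rho = 0.866 (permutation p = 0.00045, adjusted p = 0.0063), and r = 0.851 without flox MTX replicates 2 and 4. Outside those libraries Ngp had at most 14 counts. S100a9 and Camp gave r = 0.859 (permutation p = 0.00413, adjusted p = 0.0193) but rho = 0.406 (permutation p = 0.19, adjusted p = 0.398), and r = -0.01 without these libraries, so the relation of Camp with S100a9 rests on them. The permutations ran over all mice without regard to group. Their p values thus mix differences between groups with variation between mice.

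Retnlg and Mpo did not pass the filter on low counts. Retnlg was highest in the same pair of libraries, and Mpo in flox MTX replicate 2 alone. Retnlg had 1 count in each flox vehicle mouse, 0 in each KO vehicle mouse, 2, 27 and 12 in flox MTX mice, and 1, 4 and 4 in KO MTX mice. Over the group sums, the ratio of Retnlg in flox MTX to flox vehicle mice was 16.2 (95% counting interval 5.17 to 81.8), and in KO mice, with 9 counts under MTX and 0 under vehicle, the lower 95% counting limit of the ratio was 1.86. Both limits cover counting error only and leave out the spread between mice. Mpo had 132 counts in flox MTX replicate 2 and 1 to 8 counts in the other 11 libraries. Mpo overlaps the antisense gene Gm11505, and since the strand setting of the counting is not stated, reads of the pair cannot be told apart.

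Summed markers of red cells and of lymphocytes were highest in flox MTX replicate 2. Red cell genes summed to 1168 CPM in flox MTX replicate 2, the highest of 12, and 443.1 CPM in replicate 4, against 175.3 CPM in replicate 1 and 71.6 to 596.7 CPM elsewhere. Lymphocyte genes summed to 366.5 CPM in flox MTX replicate 2, 135.4 CPM in replicate 4 and 47.9 CPM in replicate 1, and to 298.2 CPM in KO MTX replicate 3. All 11 red cell genes were above the floor in flox MTX replicate 2 and 7 to 10 of them in the other libraries, while all 15 lymphocyte genes were above it in each library except flox MTX replicate 4, with 14. The part of these cells in the counts of S100a9, Ngp and Camp was not tested.

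**Figure D2:**
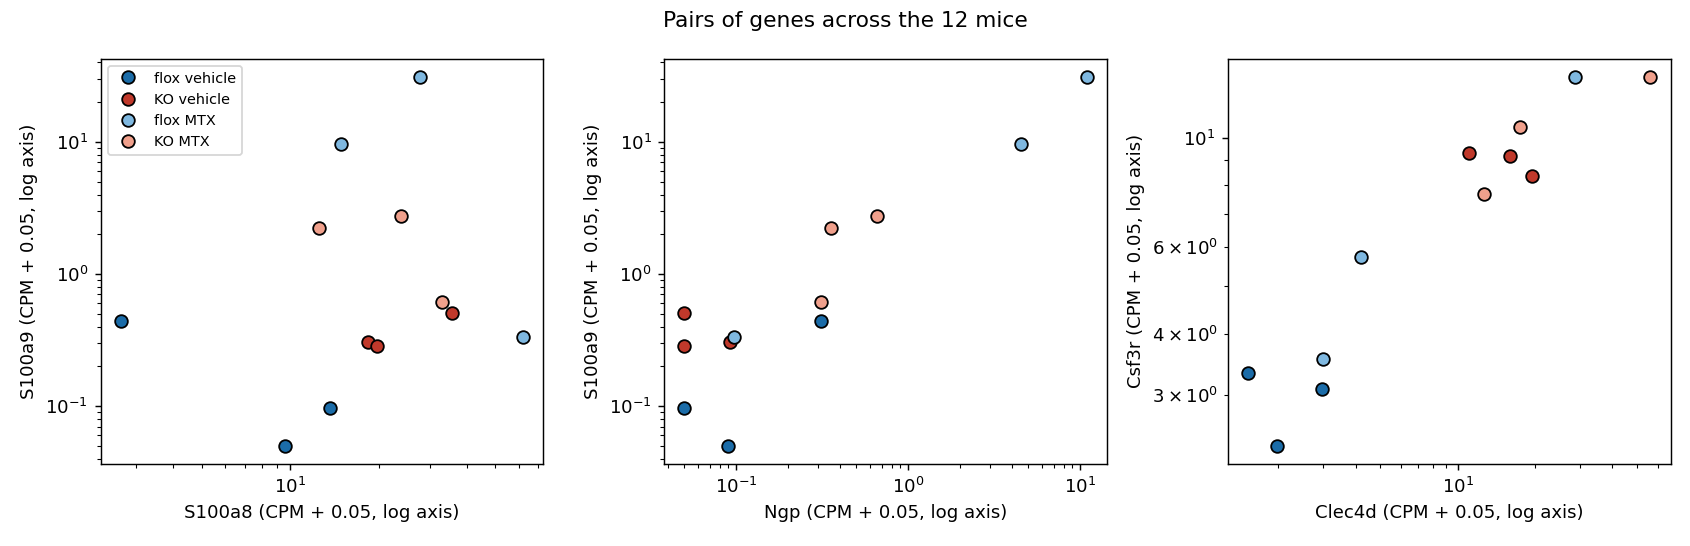
CPM of pairs of genes in the 12 mice, with 0.05 added, on log axes, coloured by group. S100a8 and S100a9 form no line (r = 0.134), S100a9 follows Ngp (r = 0.963) and Csf3r follows Clec4d (r = 0.952).

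The receptor genes Csf3r and Clec4d were lowest in flox vehicle mice in CPM, though not in unscaled counts. Flox MTX replicate 4 was just above the highest flox vehicle mouse, at 3.50 against 3.28 CPM for Csf3r and 2.94 against 2.91 CPM for Clec4d. Csf3r had 70, 59 and 71 counts in flox vehicle mice, 184, 216 and 177 in KO vehicle mice, 120, 291 and 56 in flox MTX mice, and 240, 305 and 175 in KO MTX mice. Clec4d had 67, 49 and 32 counts in flox vehicle mice, 219, 375 and 416 in KO vehicle mice, 88, 627 and 47 in flox MTX mice, and 399, 1297 and 289 in KO MTX mice. In both genes flox MTX replicate 2 was on the level of KO mice or above, and the other flox MTX mice lay below every KO mouse.

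The pair gave r = 0.952 (permutation p = 2e-05, adjusted p = 0.00028) and rho = 0.902 (permutation p = 0.00015, adjusted p = 0.0042), with r = 0.955 without flox vehicle replicates 1 and 3 and 0.868 within groups. The genes most like Csf3r were Gngt2, Ptpn18, Tent5a, Gab3 and Cxcl16, and those most like Clec4d were Fbxo32, B430306N03Rik, Dennd1c, Sema4d and Tor3a (r from 0.976 to 0.988). The macrophage gene Adgre1, which encodes F4/80, was at 17.4 to 33.7 CPM in flox vehicle, 125 to 177.8 CPM in KO vehicle, 21.5 to 215.8 CPM in flox MTX and 305.3 to 496.7 CPM in KO MTX mice, with flox MTX replicate 2 the highest of its group.

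Ltf was far higher in flox vehicle mice than in the other groups. It had 6948, 7924 and 4329 counts in flox vehicle mice, 16, 13 and 17 in KO vehicle mice, 1026, 211 and 52 in flox MTX mice, and 25, 23 and 41 in KO MTX mice. No 2 groups overlapped, with the order flox vehicle, flox MTX, KO MTX and KO vehicle. Flox MTX replicate 1, with the most Ltf of its group, also had the highest sum of epididymis genes there, 653.6 CPM against 55.5 and 38.2 CPM. At low values that sum cannot rank libraries by epididymis RNA. Flox MTX replicate 2 had 10 of the 32 genes above the floor, KO vehicle replicate 1 had 23 and flox MTX replicate 4 had 24. Flox MTX replicate 2 had Ltf at 9.59 CPM with a sum of 55.5 CPM, and KO vehicle replicate 1 at 0.806 CPM with 54.8 CPM. Flox vehicle replicates 3 and 4 had sums of 15680 and 1972 CPM, with Ltf at 311.7 and 199.9 CPM.

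The genes most like Ltf were Ceacam10, Clca3a2, Rnase12, Serpina16 and Odam (r from 0.96 to 0.963). Ltf itself is not on the epididymis list, of which 15 of 20 tested genes were lower in KO than in flox mice under vehicle and the same number were lower with MTX in flox mice. The granule genes Bpi, Cd177 and Itgb2l were highest in flox vehicle mice as well: Bpi was at 0.825 to 1.61 CPM there and at 0 to 0.0504 CPM in the other 9 libraries. The part of reproductive tissue in the counts of Ltf was not tested.

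Elane was higher in flox than in KO mice under both treatments. It had 30, 17 and 14 counts in flox vehicle mice, 6, 3 and 1 in KO vehicle mice, 24, 57 and 16 in flox MTX mice, and 2, 0 and 5 in KO MTX mice. No flox mouse overlapped a KO mouse. The gene lies at chr10:79886247-79888215 on the + strand of GRCm38, and its nearest coding gene, Cfd, starts 2638 bases further on the same strand.

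Cfd encodes adipsin, a complement factor secreted by adipocytes, and reached 836.7 to 7981 CPM in flox mice but 63.7 to 693.7 CPM in KO mice. Prtn3, which encodes another azurophil protease and lies beside Elane in the mouse genome, was at 2.41 to 11.3 CPM in flox and 1.6 to 2.11 CPM in KO mice. The part of reads from Cfd in the counts of Elane was not tested. The genes most like Elane were Sema5a, Fgf2, Ttpa, Ttc38 and A530013C23Rik (r from 0.889 to 0.927).

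**Figure D3:**
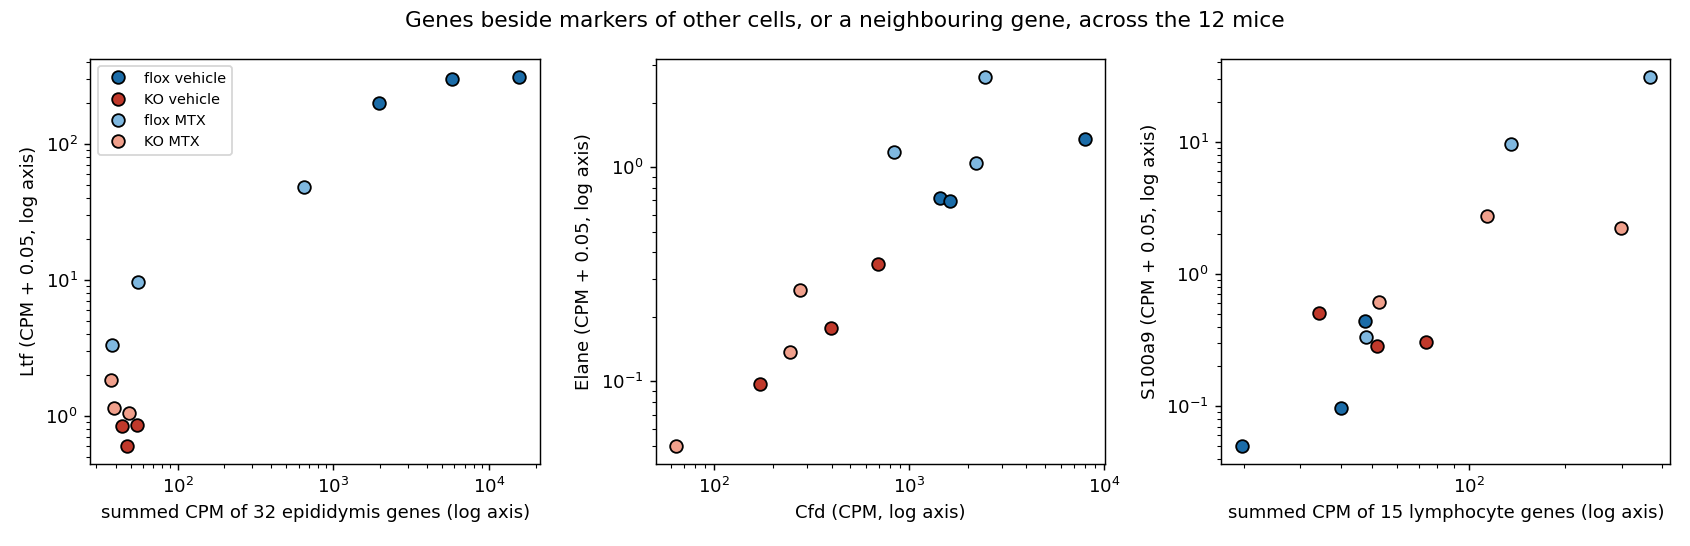
Ltf against the summed CPM of 32 epididymis genes, Elane against its neighbour Cfd, and S100a9 against the summed CPM of 15 lymphocyte genes in the 12 mice (log axes, with 0.05 added to Ltf, Elane and S100a9). Ltf is highest in the 3 libraries whose epididymis sum is at least 1972 CPM, and the flox mice lie above the KO mice in Cfd as in Elane.

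To ask how the loss of Mir181a2b2 was reflected in these genes without MTX, KO and flox vehicle mice were compared. Clec4d, Csf3r and S100a8 were higher in KO mice, by log2 fold changes of 2.87 ± 0.85 (SE, adjusted p = 0.0272), 1.63 ± 0.42 (adjusted p = 0.014) and 1.51 ± 0.63 (adjusted p = 0.0931) in edgeR's quasi-likelihood test. Ltf and Elane were lower, by -8.56 ± 0.97 (adjusted p = 0.00271) and -2.44 ± 0.79 (adjusted p = 0.0383). S100a9, Ngp and Camp did not pass the test, and their log2 fold changes were 1.09 ± 1.58, -2.33 ± 2.31 and -2.79 ± 1.35.

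Of the 8 tested genes 5 were called, 3 higher and 2 lower, against a background of 31.7% of 18702 genes called (13.9% higher and 17.8% lower). Elane passed the filter on low counts through flox mice, with 14 to 57 counts there and at most 6 in KO mice. Its call as lower and its lack of overlap were therefore partly set by the filter. The median log2 fold change was -0.62 over the 8 genes and -0.06 over all genes tested. The count was 3 without flox vehicle replicate 1 or without KO vehicle replicate 3, and the call of S100a8 was lost in 7 of the 12 fits that left out a library and that of Elane in 3. The exact permutation test of 3 mice against 3 cannot go below p = 0.1, which S100a8, Csf3r, Clec4d, Camp, Ltf and Elane reached in this comparison, with groups that did not overlap, as in 48.1% of all genes tested.

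Among 20 further granule proteins 18 were tested, and in KO mice 6 of these were higher against 4 that were lower (median 0.83). Those higher were Cyba (log2 fold change 2.73) and Cybb (2.56), the subunits of the phagocyte oxidase, the metal transporter Slc11a1 (2.71), the lysozyme gene Lyz2 (2.39), and the protease inhibitors Slpi (2.02) and Serpinb1a (0.94). Bpi (-5.08), Cd177 (-4.22), Itgb2l (-3.22) and Prtn3 (-1.55) were lower. Of 18 tested genes of neutrophil surface and cytosol 7 were higher and 0 lower, among them C5ar1 (3.58), the C5a receptor, and Fcgr3 (3.04), an Fc receptor, which macrophages also transcribe.

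Macrophage markers moved with these receptors, 18 of 21 being higher and 0 lower in KO mice (median 2.67). Their sums ranged from 16590 to 21060 CPM in KO vehicle and from 8070 to 17030 CPM in flox vehicle mice. Lpl was the listed gene of highest mean level. The highest sum of all libraries, 27020 CPM, was in flox MTX replicate 4, which also had the highest sum of adipocyte genes (58700 CPM). The sum was therefore not read as a level of macrophages alone. Among 12 monocyte markers 3 were higher and 0 lower (25%, median 0.83), against 31.7% of all genes called. Of 14 tested neutrophil attractants and growth factors 9 were higher, led by Tnf (2.38) and Alox5ap (2.12), and 1 was lower, the chemokine Cxcl5 (-6.18 ± 1.71, adjusted p = 0.025), which was at 0 in the 3 KO vehicle libraries and at most 0.629 CPM in flox vehicle mice. Among 13 regulators of granulopoiesis 5 were higher, including Spi1 (3.09), which encodes PU.1, and Irf8 (1.48), and 2 were lower, Myb (-2.44) and Klf5 (-1.42). The part of macrophages in the changes of Csf3r and Clec4d was not tested.

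**Figure D4:**
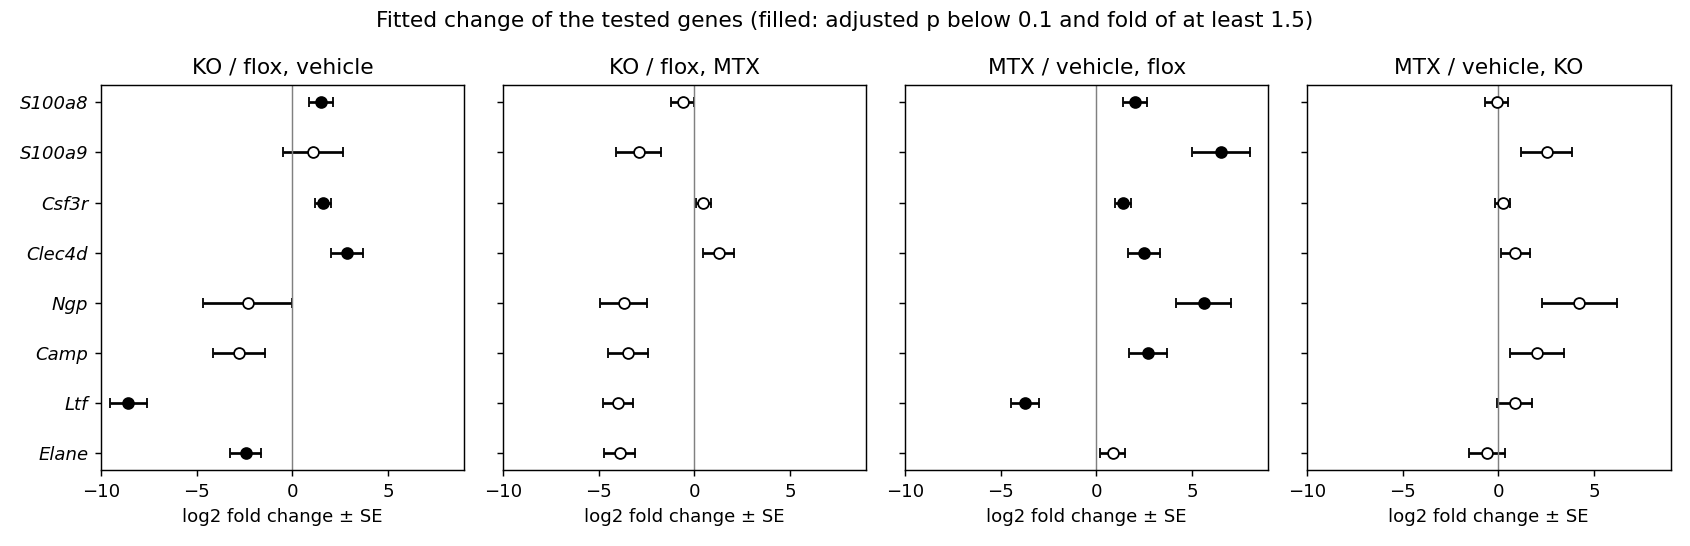
Log2 fold changes with standard errors of the 8 tested genes in 4 comparisons, filled where the adjusted p was below 0.1 and the fold change at least 1.5. Of the 8 genes 5 are called between KO and flox under vehicle, 7 with MTX in flox mice, and 0 in the other comparisons.

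The response to MTX in flox mice was examined next. S100a9 and Ngp rose with log2 fold changes of 6.51 ± 1.5 (adjusted p = 0.0148) and 5.61 ± 1.42 (adjusted p = 0.0213), followed by Camp at 2.70 ± 0.97 (adjusted p = 0.0746), Clec4d at 2.5 ± 0.84 (adjusted p = 0.0608), S100a8 at 2.02 ± 0.64 (adjusted p = 0.0472) and Csf3r at 1.38 ± 0.42 (adjusted p = 0.0406). Ltf fell by 3.72 on the log2 scale (SE 0.74, adjusted p = 0.00901). Elane did not pass the test, at 0.86 ± 0.66.

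Thus 7 of 8 genes were called, 6 higher and 1 lower, against 24.2% of all genes (8.09% higher and 16.1% lower). The median log2 fold change was 2.26 over the 8 genes and 0.05 over all genes tested. Ngp and Camp passed the filter on low counts through flox MTX replicates 2 and 4, where they were high. Ngp did so together with KO MTX replicate 4 (14 counts), and Camp with flox vehicle replicate 3 (15 counts). Their place among the 6 higher genes was therefore partly set by the filter. Of the 6 genes that rose, S100a8, Csf3r and Clec4d had all flox MTX mice above all flox vehicle mice in CPM, as did 10.9% of all genes. Their margins were narrow, with flox MTX replicate 4 at 14.9, 3.50 and 2.94 CPM against highest flox vehicle values of 13.6, 3.28 and 2.91 CPM, and its unscaled counts were not the higher ones. The groups overlapped in S100a9, Ngp and Camp because of flox MTX replicate 1. The count fell to 3 without flox vehicle replicate 3 and to 4 without flox MTX replicate 2. Leaving both flox MTX replicates 2 and 4 out, a setting chosen after the values were seen that leaves 1 library in the arm and takes the spread from the other groups, gave 2 calls, S100a8 and Ltf. As these libraries were chosen for their high S100a9, Ngp and Camp, the loss of those calls was fixed by the choice. With only the 6 libraries of the comparison, 1 of 6 tested genes was called, Ltf.

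Of the 18 tested granule proteins 9 were higher with MTX in flox mice and 3 lower (median 1.25). Slpi (log2 fold change 3.23), Mmp25 (2.15), a membrane-bound metalloproteinase of neutrophils, and Chil3 (2.00) were among those higher, and Bpi (-7.76), Itgb2l (-4.58) and Cd177 (-2.09) were lower. Among genes of neutrophil surface and cytosol 9 of 18 were higher and 0 lower, among them the formyl peptide receptor Fpr2 (2.58). In the same comparison 7 of 10 tested red cell genes, 9 of 15 lymphocyte genes, 8 of 12 monocyte genes and 16 of 21 macrophage genes were higher and 0 of each list lower.

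Under MTX, KO and flox mice were then compared. In edgeR's test 0 of 8 genes and 0% of all genes were called, while 5 of the 8 genes had an unadjusted p below 0.05, as did 24.5% of all genes. The log2 fold changes were -3.98 ± 0.81 for Ltf and -3.89 ± 0.82 for Elane (adjusted p = 0.104 for both), -3.47 ± 1.04 for Camp (adjusted p = 0.111), -3.70 ± 1.22 for Ngp (adjusted p = 0.122) and -2.91 ± 1.18 for S100a9 (adjusted p = 0.169). The groups did not overlap in Ltf and Elane, as in 26.8% of all genes. For Elane, which passed the filter on low counts through flox mice, this was partly set by the filter.

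This count depended on single libraries. Without flox MTX replicate 2 the genes called were Clec4d, Csf3r, Elane and Ltf, 4 of 8, among 4064 called over all genes. Without flox MTX replicate 1 they were Camp, Ltf and Ngp, and without flox vehicle replicate 3 they were Elane and Ltf. DESeq2 called 4 of the 7 genes to which it gave an adjusted p (Camp, Elane, Ngp and S100a9), but in simulated data for KO against flox under vehicle DESeq2 made false calls above its nominal rate.

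With MTX in KO mice 0 of 8 genes were called by edgeR or by DESeq2, 0 had an unadjusted p below 0.05 (7.97% of all genes did), and 0% of all genes were called by edgeR. The log2 fold changes of S100a9, Ngp and Camp were 2.52 ± 1.31 (adjusted p = 0.674), 4.24 ± 1.97 (adjusted p = 0.641) and 2.03 ± 1.43 (adjusted p = 0.784). All KO MTX mice were nevertheless above all KO vehicle mice in S100a9, Ngp, Camp and Ltf, as were 11.1% of all genes, with the exact permutation p at its lowest value of 0.1. Over the group sums Ngp had 27 counts with MTX and 1 with vehicle, a ratio of 25.4 (95% counting interval 4.18 to 1040). This interval covers counting error only and leaves out the spread between mice. S100a8 was at 23.1 ± 10.2 CPM with MTX and 24.5 ± 9.57 CPM with vehicle (SD, n = 3 each).

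Whether the response to MTX differed between genotypes was tested as the interaction. By edgeR and by DESeq2 0 genes of the set were called, against 0.989% of all genes in edgeR, and 2 of the 8, Ltf and S100a8, had an unadjusted p below 0.05, as did 15% of all genes. DESeq2 gave an adjusted p to 7 of the 8. The difference of the log2 fold changes, KO minus flox, was 4.58 ± 1.15 for Ltf (adjusted p = 0.119), -2.11 ± 0.87 for S100a8 (adjusted p = 0.29) and -3.99 ± 1.96 for S100a9 (adjusted p = 0.367). Although 7 genes were called with MTX in flox and 0 in KO mice, a different response was therefore not shown for any of them at the adjusted limit.

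Related genes are given beside the 31.7% of all genes called between KO and flox under vehicle and the 24.2% called with MTX in flox mice. Among 12 tested genes of the Clec4 family and its adaptors 8 were higher in KO than in flox mice under vehicle and 7 with MTX in flox mice, with 0 lower. Fcer1g, an adaptor that couples some of these lectins to Syk, had log2 fold changes of 3.05 and 1.86. Of 12 other tested S100 genes 5 were higher and 1 lower in KO mice under vehicle (50%), with S100a4 at 2.58 and S100a14 at -2.12, and 4 were higher and 1 lower with MTX in flox mice (41.7%). Among 9 genes of calprotectin receptors and signalling, 4 were higher and 0 lower in each of these comparisons (44.4%), led by the co-receptor Cd14 (2.88 and 1.77). Retn, the adipocyte resistin and a relative of Retnlg, was lower in KO than in flox mice under vehicle (-1.87 ± 0.73, adjusted p = 0.0767), at 100.4 to 462.2 CPM against 503.6 to 1462 CPM.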

How the data were processed

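RNA of eWAT from 12 mice was sequenced, 1 library per mouse. The authors trimmed reads with Trimmomatic 0.36, aligned them with STAR 2.5.2b to mm10 (GRCm38) with Ensembl annotation and counted them per gene with featureCounts of Subread 1.5.2; the deposited values are raw whole counts. The labels name polyA RNA and the methods ribodepletion, and strand and multimapping settings are not given in the sources used here, which could change the counts of overlapping genes.

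Differential expression used edgeR 4.0.16 under R 4.3.3 (TMM scaling; filterByExpr by group, 18702 of 49315 genes, 1 coefficient per group, quasi-likelihood F-test, two-sided, Benjamini-Hochberg over all genes tested). A call needed an adjusted p below 0.1 and a fold of at least 1.5. SE is the log2 fold change divided by the root of F. CPM used TMM library sizes, and correlations log2(CPM + 0.5) with 100000 permutations over all libraries regardless of group, two-sided. No 2 libraries of a group were duplicates (lowest chi-square per degree of freedom 14.1 over 12 pairs). Positions of genes are from GENCODE M21, and those of the sequences before start sites are from RefSeq.

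Alternatives were DESeq2 1.42.0, other scalings and filters, a replicate block, only the libraries compared, other limits, and leaving out each library. The scripts were tested on simulated data. The genes and lists were chosen with earlier results of these data known. Named were the 10 genes and the 5 genes most like each tested one. From each list, up to 2 called genes per direction with the largest change (or the 2 of highest level) were named. Ly6g, Cxcr2, Stfa2, Mmp8, Lcn2, Adgre1, Cfd, Prtn3, Cybb, Lyz2, Serpinb1a, Chil3 and Itgb2l were added after their values were seen. The result of 1 further gene that the rule names is left out.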

Additional observations from a re-analysis of the deposited data

Results flagged for a closer look

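Ltf was lower with MTX in each flox mouse than in any flox vehicle mouse and higher in each KO MTX mouse than in any KO vehicle mouse. The log2 fold change was -3.72 ± 0.74 in flox and 0.85 ± 0.91 in KO mice (adjusted p = 0.857 by edgeR), and their difference of 4.58 ± 1.15 did not pass the interaction test (adjusted p = 0.119). In the other settings the adjusted p of the difference ranged from 0.0216 to 0.348. The levels behind it were 199.9 to 311.7 CPM in flox vehicle and 0.551 to 1.79 CPM in KO mice, and the summed epididymis genes were high in the same flox vehicle libraries.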

How the results depend on the processing

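Of 798 values of single genes under other settings, 712 kept their direction and their side of the limit, 39 lost and 27 gained a call, and 20 changed sign. The number of called genes, main values 5, 0, 7, 0 and 0, ranged on leaving out 1 library from 3 to 6 for KO against flox under vehicle, 0 to 4 for KO against flox under MTX, 3 to 8 for MTX in flox mice, 0 to 0 for MTX in KO mice and 0 to 1 for the interaction. KO against flox under MTX gave 4 calls with DESeq2, 4 with unfiltered genes, 1 where each library had to hold 10 counts and 1 without flox MTX replicates 2 and 4. MTX in flox mice gave 4 calls under that stricter minimum (of 4 genes left), 1 with only the libraries compared and 2 without flox MTX replicates 2 and 4. The interaction gave 1 call, Ltf, without a filter. Retnlg and Mpo, tested only without the filter or, for Retnlg, in 10 of the fits that left out a library, were higher with MTX in flox mice in the unfiltered fit (log2 fold changes 3.87 and 3.65, adjusted p = 0.0216 and 0.04 by edgeR), and Mpo was lower in KO than in flox mice under MTX (-4.13, adjusted p = 0.099). The call of Retnlg was lost without flox vehicle replicate 3 (adjusted p = 0.111). DESeq2 gave no adjusted p for Ltf.

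No clear sign was seen that replicate numbers paired the mice, though the check is too small to exclude it. The median correlation of residuals was 0.0516 over 12 same-numbered pairs (lowest -0.369) and -0.0149 over 42 others. Of 12 libraries 1 was most alike one of its own number. With the replicate block 1 gene was called for MTX in flox mice, and the signs changed for S100a8 with MTX in KO mice (0.049) and for the interaction of Ngp (0.40) and Camp (0.30).

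Without flox MTX replicates 2 and 4, chosen after seeing the data for their high S100a9, Ngp and Camp, so that the choice itself moves these genes, and with the lone library left assumed to vary like the other groups, KO against flox under MTX turned to 2.66 for S100a9, 2.92 for Ngp and 0.51 for Camp, MTX in flox mice to -0.99 for Ngp and -1.25 for Camp, and the interaction to 1.55 for S100a9, 5.24 for Ngp and 3.27 for Camp. Leaving out 1 library, signs changed within the ranges -0.43 to 0.27 (S100a8), -1.72 to 0.18 (Elane) and -0.044 to 1.25 (Clec4d) for MTX in KO mice, -0.95 to 0.13 (S100a8) for KO against flox under MTX, and -3.35 to 0.50 (Ngp), -1.31 to 2.48 (Camp) and -2.55 to 0.13 (Clec4d) for the interaction. None of the values that changed sign was called in its setting. Depth limits Ngp, Camp, Retnlg, Mpo and Elane, whose counts lay at or near the floor of 3 in many libraries.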
